A study of Mus musculus with 6 samples.

Results

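Gene expression after Rbm43 siRNA was examined in primary mouse adipocytes in which Cre adenovirus had been used to target Ppargc1a, set against control cells. All cells had the Ppargc1a(fl/fl) genotype, in which both copies of the gene carry loxP sites, the recognition sites of the Cre recombinase. The 2 control libraries came from cells given adenovirus for green fluorescent protein (GFP) and then a control siRNA, so these cells were not untreated. The 2 other libraries of the comparison came from cells given Cre virus and then Rbm43 siRNA, and are called the Cre libraries after their label. Differentiation followed both treatments, and RNA was taken from fully differentiated cells.

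Virus and siRNA both differ between these groups, and the fourth combination, control siRNA after Cre virus, was not analysed here, so their contributions to any difference cannot be told apart. A group of 2 libraries with GFP virus and Rbm43 siRNA was read in the same table. It allows a direct test of Cre against GFP virus under the same siRNA. The samples are described as biological duplicates, with no statement on whether they came from separate animals, so p-values measure the spread between these samples. The promoter that drives Cre is not given in the sources used here.

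A gene entered the comparison when its normalized count, the deposited unit of reads scaled for library size, was at least 10 in at least 2 of the 4 libraries. This rule kept 13994 of the 35976 genes in the table. Of these, 13323 reached 10 in all 4 libraries, 70 passed only through both Cre libraries and 88 only through both control libraries. Just inside the limit was D230017M19Rik, whose second-highest value was 10.4, and just outside it was Marco, at 9.79.

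PGC-1alpha, the product of Ppargc1a, is a transcriptional coactivator that binds nuclear receptors such as the PPAR and estrogen-related receptors and raises transcription of genes for respiration, fatty acid oxidation and heat production. Adipocytes raise it on cold exposure and beta-adrenergic stimulation, and its level goes with the thermogenic program marked by Ucp1. Rbm43 encodes a protein with an RNA recognition motif. Type I interferon genes, the other large program described here, are induced through transcription factors of the IRF and STAT families when nucleic acids reach cytosolic or endosomal sensors.

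Reads in genes ranged from 15775398 to 21961724 over the 6 libraries of the table. The 2 libraries of every group differed beyond sampling noise, with a chi-square per degree of freedom of 4.14 in control, 2.75 with GFP virus and Rbm43 siRNA and 1.77 in Cre libraries. The adipocyte label was met: Adipoq, which encodes adiponectin, stood at 22094 and 21331 normalized counts in control and at 18345 and 18218 in Cre libraries. The summed level of 8 adipocyte markers was 192850 and 177240 in control libraries and 210860 and 212730 in Cre libraries. Most of each sum was Fabp4, at 137850 and 125490 in control and 159620 and 162220 in Cre libraries. Of the 8 markers, 4 were called lower (50%) and 2 higher (25%), with a median difference of -0.10. Over all genes compared, 6.36% were called lower and 8.58% higher. Mitochondrially encoded mRNAs made up 4.47% to 4.56% of the signal in control, 4.32% to 4.42% in Cre libraries and 5.31% to 5.56% with GFP virus and Rbm43 siRNA.

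The siRNA target was low in both groups that received its siRNA. Rbm43 (chr2:51924448-51935163, minus strand, mm10 build) measured 185 and 224 normalized counts in control libraries, 53.8 and 32.5 in Cre libraries and 43.7 and 46.6 with GFP virus and Rbm43 siRNA. Both Cre libraries lay far under both control libraries. The gene fell by 2.26 ± 0.21 (SE) on the log2 scale (limma, adjusted p = 4.35e-07). Cre and GFP virus under the same siRNA differed by -0.11 ± 0.21 (adjusted p = 0.834), with a 95% interval from -0.54 to 0.33.

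Ppargc1a mRNA was higher, not lower, in the Cre libraries than in control. Ppargc1a (chr5:51454250-51567726, minus strand) measured 163 and 202 in control, 463 and 469 in Cre libraries and 399 and 423 with GFP virus and Rbm43 siRNA. The control libraries were the lowest of the 6 and the Cre libraries the highest. It rose by 1.35 ± 0.10 (adjusted p = 2.67e-08), and the direct difference between Cre and GFP virus was 0.18 ± 0.10 (adjusted p = 0.33, interval from -0.03 to 0.39). The deposited value is 1 sum per gene and does not part exons between the loxP sites from the rest, so it does not check the excision. Directions given here for Cre virus therefore rest on the label alone.

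Across the 13994 genes, 2091 differed between Cre and control libraries at an adjusted p under 0.05, which is 14.9%. Of these, 1201 rose (8.58%) and 890 fell (6.36%). Most called differences were small, with a median of 0.34 among genes that rose and 0.31 among those that fell on the log2 scale. Changes over 2-fold were called for 94 genes upward (0.672%) and 44 downward (0.314%). The plot of fold change against level shows both sides with their best-measured genes.

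The count of 2091 depends on the estimate of spread. It was 433 without a mean-variance trend, 769 without Cre replicate 1 and 826 without Cre replicate 2, 1220 with DESeq2 and 2107 with edgeR on the recovered reads. For the median gene of the comparison the difference was -0.0017, after the authors' scaling.

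**Figure D1:**
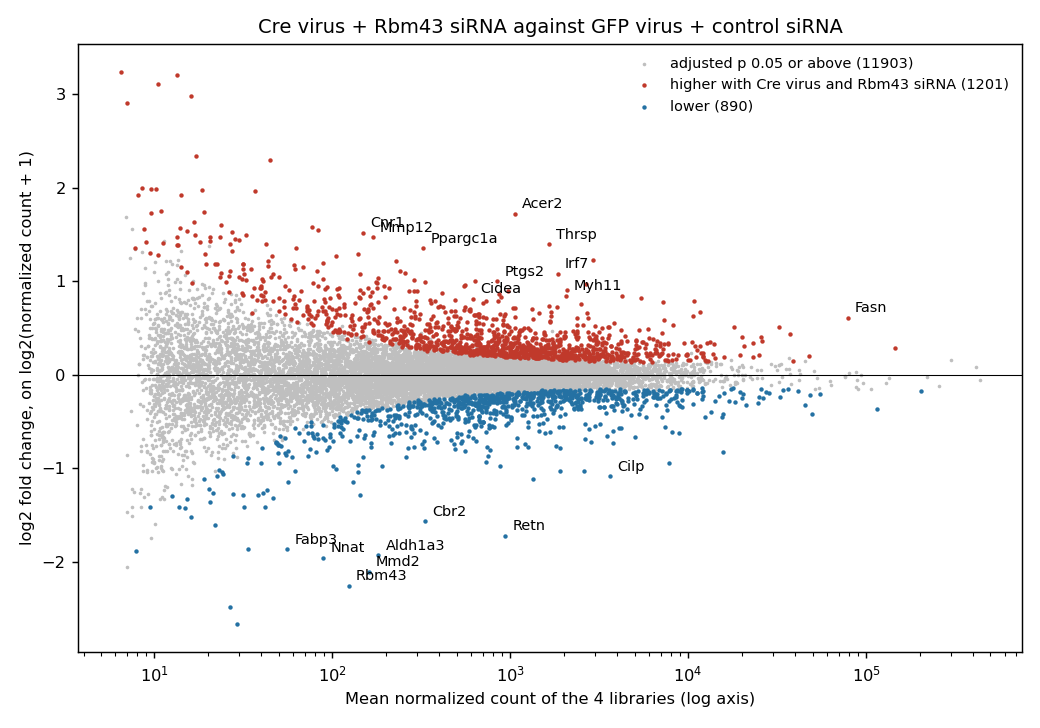
Log2 fold change of each of the 13994 genes (y axis, Cre libraries minus control libraries) against its mean normalized count over the 4 libraries (x axis, log scale). Red points are the 1201 genes that rose, blue points the 890 that fell and grey points the others. Acer2, Cnr1 and Thrsp stand out among rises, and Rbm43, Mmd2, Nnat, Aldh1a3, Fabp3 and Retn among falls.

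The same 13994 genes were read in the other contrasts of the fit. With GFP virus, Rbm43 siRNA against control siRNA called 3290 genes (23.5%), 1903 upward (13.6%) and 1387 downward (9.91%). This contrast shares its control libraries with the Cre comparison, so values of both are only given side by side. Cre against GFP virus under Rbm43 siRNA called 1206 genes (8.62%), 372 higher (2.66%) and 834 lower (5.96%) with Cre virus. That direct test depends on the estimate of spread too. Without the trend, limma called 0 genes in it, with 2320 at an unadjusted p under 0.05, while edgeR called 1333 and DESeq2 838. It called 310 genes without Cre replicate 1, 329 without Cre replicate 2 and 468 without replicate 2 of GFP virus with Rbm43 siRNA, but 2053 and 2060 without either control library.

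Several of the largest differences from control were seen with both viruses, and Cre against GFP virus did not pass the test. Retn, which encodes the adipokine resistin, measured 1513 and 1364 in control, 433 and 439 in Cre libraries and 515 and 457 with GFP virus and Rbm43 siRNA (chr8:3655770-3660110). Both groups with Rbm43 siRNA lay far below control and did not overlap it. Retn fell by 1.72 ± 0.08 against control (adjusted p = 4.26e-11), and the difference between viruses was -0.15, interval from -0.31 to 0.01. Aldh1a3, a retinaldehyde dehydrogenase that makes retinoic acid, stood at 264 and 310.4 in control and 83.2 and 66.8 in Cre libraries. It fell by 1.93 ± 0.15 (adjusted p = 7.10e-08), with a difference between viruses of 0.19, interval from -0.13 to 0.52. Nnat, the imprinted gene for neuronatin, read 160.2 and 124 in control and 39.2 and 32.5 in Cre libraries and fell by 1.95 ± 0.20 (adjusted p = 1.59e-06). Its interval for Cre against GFP virus ran from -0.47 to 0.37. A test that misses the threshold does not show that the 2 viruses gave the same level, and the intervals give the differences still compatible with these libraries.

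Cnr1, which encodes the cannabinoid receptor CB1, was high with both viruses under Rbm43 siRNA. It measured 73.9 and 79.1 in control, 195 and 251 in Cre libraries and 204 and 221 with GFP virus and Rbm43 siRNA, and every library with Rbm43 siRNA exceeded both controls. It rose by 1.52 ± 0.14 (adjusted p = 2.66e-07), and the interval for Cre against GFP virus ran from -0.23 to 0.34. Hephl1, a copper-dependent ferroxidase, rose by 1.22 from 137 and 135 to 296 and 343. Cyp2f2, a cytochrome P450, rose by 1.29 from 81.1 and 77.9 to 172 and 224. Among falls, Cilp, a matrix protein first known from cartilage, went from 4914 and 5021 to 2407 and 2285, a change of -1.08 ± 0.05 (adjusted p = 4.26e-11) with a virus interval from -0.15 to 0.05. Cbr2, a carbonyl reductase, Wfdc21, a secreted protein with a WAP domain, and St3gal6, a sialyltransferase, fell by 1.56, 1.28 and 1.15.

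Acer2, the alkaline ceramidase of the Golgi (chr4:86874396-86934822), stayed high in the Cre libraries but lower than with GFP virus. It measured 453 and 538 in control, 1726 and 1545 in Cre libraries and 2225 and 2310.5 with GFP virus and Rbm43 siRNA, so the groups fell in 3 separate ranges. Acer2 rose by 1.72 ± 0.08 against control (adjusted p = 4.26e-11) and differed by -0.47 between Cre and GFP virus (adjusted p = 4.17e-04), the latter a call lost without Cre replicate 2 (0.0554). Thrsp, a nuclear protein of lipogenic tissues, had the same order with 971 and 849.6, 2285 and 2513 and 3529 and 3542. It rose by 1.40 ± 0.06 (adjusted p = 4.26e-11) and differed by -0.56 between viruses (adjusted p = 1.86e-05). Dnajc22, a J-domain co-chaperone, rose by 1.01 ± 0.22 from 22.9 and 30.4 to 66.6 and 43.9 (adjusted p = 0.00408), a call lost without Cre replicate 1 (0.147). The antisense gene 4631405J19Rik, among the 5 largest rises with GFP virus, rose by 2.30 here, from 18.7 and 11 to 74.4 and 74.7. Reads of an antisense gene and its partner cannot be told apart where the strand setting of the counting is not given.

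Gbp10, a guanylate-binding protein, rose by 1.58 ± 0.22 from 27 and 51.1 to 119 and 108 (adjusted p = 3.96e-05). Ifi27l2b, an interferon-induced gene, rose by 1.55 ± 0.17 from 44.7 and 39 to 111 and 139 (adjusted p = 4.90e-06). Both have close copies in the mouse genome, and reads may be shared with them. Celsr3, an adhesion receptor of the cadherin family, and 6430571L13Rik rose by 1.36 and 1.27. For Gm15564 the value of 1.23 ± 0.32 (adjusted p = 0.0118) came with uneven controls of 3139.5 and 848, replicate 2 being far lower, and its call was lost without either Cre library (adjusted p = 0.173 without replicate 1 and 0.127 without replicate 2) and in DESeq2 (0.587).

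**Figure D2:**
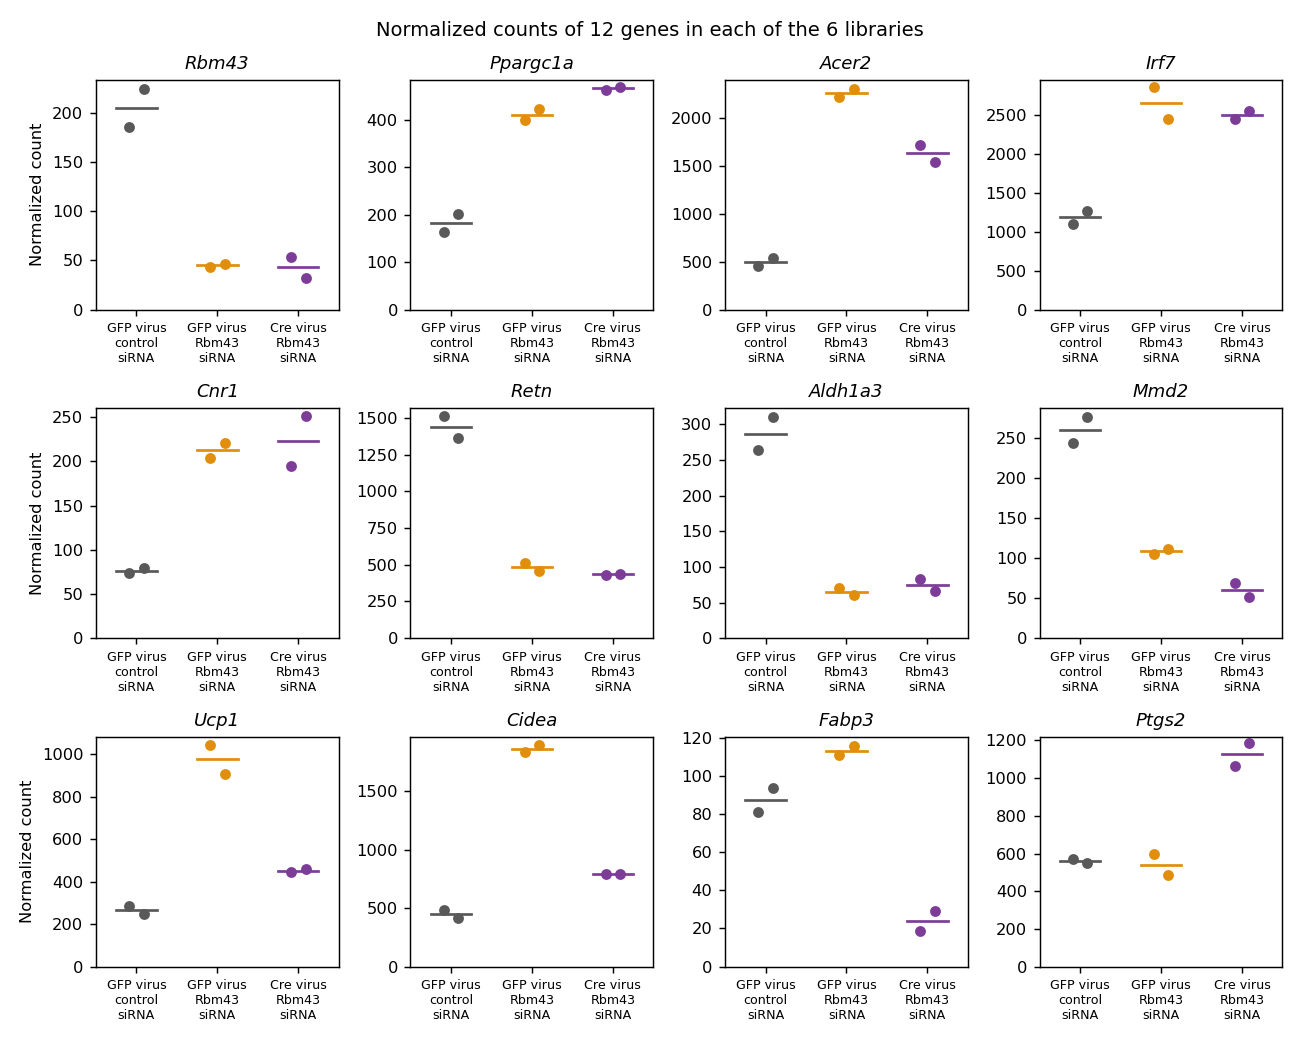
Normalized counts (y axis, from 0) of 12 genes in each of the 6 libraries. Points are libraries and bars are group means, with GFP virus and control siRNA in grey, GFP virus and Rbm43 siRNA in orange, and Cre virus and Rbm43 siRNA in purple. Irf7, Cnr1, Retn and Aldh1a3 have both Rbm43 siRNA groups away from control, Ucp1 and Cidea lie between, and Fabp3 and Ptgs2 part the Cre libraries from the other 4.

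Many interferon-response genes were higher in the Cre libraries than in control. Of 70 genes, 32 rose (45.7%) and 3 fell (4.29%), against 8.58% and 6.36% over all genes, and the median difference from control was 0.23. The antiviral effectors made up most of the rises, with 19 of 35 called higher. Interferon-induced GTPases had 4 of 10 higher, antigen presentation genes 5 of 10, nucleic acid sensors 2 of 9 and transcription factors 2 of 6. With GFP virus and Rbm43 siRNA the same list had 42 higher, beside 13.6% over all genes, and a median of 0.38. In the direct comparison 8 of 70 were lower with Cre virus, beside 5.96% over all genes, with a median of -0.11.

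Irf7, the transcription factor that amplifies type I interferon (chr7:141262706-141266481), measured 1104 and 1271 in control, 2453 and 2558 in Cre libraries and 2871 and 2458 with GFP virus and Rbm43 siRNA. All 4 libraries with Rbm43 siRNA were above both controls. Irf7 rose by 1.08 ± 0.07 (adjusted p = 7.78e-09), and the difference between viruses was -0.08, interval from -0.24 to 0.07. Zbp1, a sensor of Z-form nucleic acid, measured 673 and 689 in control and 1235 and 1294 in Cre libraries, again without overlap. It rose by 0.89 ± 0.06 (adjusted p = 1.72e-08), with an interval between viruses from -0.17 to 0.10. Gbp3, a guanylate-binding GTPase, rose by 0.62 ± 0.07 from 768 and 909 to 1266 and 1306 (adjusted p = 5.10e-06). Against the direction of the list, Mx1, an antiviral GTPase, fell by 1.26 ± 0.25 from 48.9 and 66.9 to 20.6 and 26.4 (adjusted p = 0.00155). H2-K1, a classical MHC class I heavy chain, fell by 0.23 ± 0.05 (adjusted p = 0.00373), a call lost without Cre replicate 1 (0.0780) or 2 (0.100), and MHC genes can share reads with close copies.

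The level of this list differed between the control libraries themselves. Its median deviation from the mean of the 6 libraries was -0.33 in control replicate 1 and -0.06 in control replicate 2, against 0.03 and 0.06 in the Cre libraries. The number of list genes called higher was 26 without control replicate 1, 44 without control replicate 2, 17 without Cre replicate 1 and 19 without Cre replicate 2, and the number lower reached 9 without control replicate 1. It was 7 without the mean-variance trend and 24 with DESeq2. Whether markers of immune cells had a part in it was not tested, but their levels are given with the other cell type markers.

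The promoters of the interferon list were read for the interferon-stimulated response element, searched as GAAA, any 2 bases and GAAA on both strands. It was chosen because 32 of the 70 members rose, though 3 fell and 35 were not called. Promoters were RefSeq sequences from 250 bases before to 50 bases after the start, on GRCm38.p6. The letters occurred in 24 of 51 list genes with a promoter in the table (47.1%), in 9 of the 22 that rose (40.9%), and in 397 of 10445 genes of the comparison (3.8%). The 4 windows printed here of 30 bases show it in genes that rose, drawn from effectors, GTPases and antigen presentation, with 1 match per window in capitals and the rest in lower case. They come from Bst2 (chr8:71537583-71537612, minus strand), Gbp3 (chr3:142559989-142560018, plus), B2m (chr2:122147538-122147567, plus) and Isg15 (chr4:156200877-156200906, minus), each read 5′ to 3′ on the strand of the gene.
Bst2: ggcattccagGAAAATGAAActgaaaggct
Gbp3: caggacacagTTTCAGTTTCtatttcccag
B2m: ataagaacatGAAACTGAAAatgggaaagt
Isg15: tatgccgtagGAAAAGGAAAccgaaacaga
The match in capitals begins 130, 45, 139 and 78 bases before the start in this order, and in Gbp3 it lies on the opposite strand, so that the capitals show its reverse complement. The promoters hold 2, 2, 1 and 3 matches, and in Bst2, Gbp3 and Isg15 a further match overlaps the capitals and runs into the lower-case letters. Bst2, or tetherin, which holds budding virions at the membrane, rose by 0.56 ± 0.06 from 1313 and 1382 to 1953 and 2022. B2m, the light chain of MHC class I, rose by 0.34, and Isg15, a ubiquitin-like modifier, rose by 0.42; these last 2 were named after their values were seen. A match describes letters only, not a site that is used. Other motifs were searched in the same way. The estrogen-related receptor motif (T, any base and AAGGTCA) occurred in 3 of 63 respiratory subunit genes (4.76%), beside 0.9% of genes compared. It occurred in 0 genes of the TCA cycle, fatty acid oxidation and thermogenic lists. A sterol element (TCAC, any base and CCAC) occurred in 1 of 15 cholesterol synthesis genes (6.67%), beside 1.45% of genes compared.

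Of 76 nuclear genes for respiratory subunits, 21 rose (27.6%) and 4 fell (5.26%) against control, beside 8.58% and 6.36% over all genes, 51 did not pass, and the median difference from control was 0.09. With GFP virus and Rbm43 siRNA the median was 0.45 with 71 higher, beside 13.6% over all genes in that contrast. In the direct comparison 69 of 76 were lower with Cre virus, beside 5.96% over all genes, with a median of -0.36. By library, the median deviation of the list from the mean of all 6 was -0.11 and -0.26 in control, -0.10 and -0.07 in Cre libraries, and 0.28 and 0.27 with GFP virus and Rbm43 siRNA. The Cre libraries were near control replicate 1 and above control replicate 2. The count of 21 depended on single libraries and on the method: it was 45 without control replicate 1, 9 without control replicate 2 and 5 without either Cre library, 14 with DESeq2, and in limma without the trend 0 of 76, with 15 at an unadjusted p under 0.05.

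The 21 subunits called higher were spread over the complexes, and differences between complexes were not tested. Over all genes 8.58% rose. Complex IV, the cytochrome c oxidase, had 6 of 10 called higher with a median of 0.21, and complex I, the NADH dehydrogenase, had 10 of 37 with a median of 0.14. Complex II had 1 of 4 with a median of 0.07. Complex III with cytochrome c had 1 of 10 and ATP synthase 3 of 15, with medians of 0.05 and 0.06. Ndufb6, a complex I subunit, measured 1432 and 1357 in control, 1794 and 1807 in Cre libraries and 2385 and 2502 with GFP virus and Rbm43 siRNA. The Cre libraries lay between, 0.37 ± 0.05 above control (adjusted p = 9.05e-05) and at -0.44 against GFP virus (adjusted p = 3.87e-05). Ndufc1, another complex I subunit, rose by 0.51 ± 0.09 (adjusted p = 6.66e-04). Ndufa10, also of complex I, went under control: it measured 3857 and 3645 in control, 2878 and 3019.7 in Cre libraries and 3893 and 3856 with GFP virus and Rbm43 siRNA. It fell by 0.35 ± 0.05 (adjusted p = 7.22e-05), and Ndufb3 fell by 0.31 ± 0.06 (adjusted p = 5.73e-04). Neither Ndufa10 nor Ndufb3 passed the test between Rbm43 siRNA and control siRNA under GFP virus, at 0.05 and 0.04.

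The 13 mRNAs encoded in mitochondrial DNA had a median difference of -0.02 from control, against 0.26 with GFP virus and Rbm43 siRNA. Of these, 11 of 13 were lower with Cre than with GFP virus, beside 5.96% over all genes. CYTB, the cytochrome b of complex III, measured 102860 and 94914 in control and 90547 and 94797 in Cre libraries, -0.09 ± 0.06 and not past the threshold (adjusted p = 0.312). ND4, a subunit of complex I, was at -0.14 ± 0.05 (adjusted p = 0.0793). ND4 was called lower by edgeR (-0.13, adjusted p = 0.0472) and by limma without control replicate 2 (0.0385). With all libraries limma called ND6 and ATP8, at 0.22 ± 0.05 and 0.80 ± 0.21, and neither call was firm. ND6 was lost without Cre replicate 1 (adjusted p = 0.236), and ATP8 without either Cre library (0.104 and 0.118) or control replicate 2 (0.0827) and in DESeq2 (0.172). ATP8 overlaps ATP6 and ND6 lies antisense to other mitochondrial genes, so their reads may be shared.

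In the TCA cycle list, which includes pyruvate entry, 8 of 23 genes rose (34.8%) and 3 fell (13%), beside 8.58% and 6.36% over all genes, with a median of 0.09. In the direct comparison 22 of 23 were lower with Cre than with GFP virus, beside 5.96%. Pyruvate entry held 6 of the rises among its 10 genes, while 2 of 13 cycle enzymes rose. Mpc2, a subunit of the mitochondrial pyruvate carrier, rose by 0.37 ± 0.06 from 2824 and 2500.1 to 3357 and 3490.5 (adjusted p = 1.37e-04). Pdha1 and Pdhb, the E1 subunits of pyruvate dehydrogenase, rose by 0.33 and 0.30. Dlat, the E2 subunit of the same complex, fell by 0.25, and Pdk4, the kinase that switches the complex off, fell by 0.29. The count of 8 was 4 without either Cre library.

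Fatty acid oxidation genes split in direction, with 7 of 32 higher (21.9%), 8 lower (25%) and a median of -0.01, beside 8.58% and 6.36% over all genes. In the direct comparison 28 of 32 were lower with Cre virus, beside 5.96%. Acacb, the acetyl-CoA carboxylase whose product blocks fatty acid entry into mitochondria, rose by 0.50 ± 0.05 from 2817 and 2633 to 3780.2 and 3941 (adjusted p = 1.15e-06). Ehhadh, the peroxisomal bifunctional enzyme, rose by 0.41 ± 0.06 and Etfdh, which passes electrons to ubiquinone, by 0.31 ± 0.05. Ech1, a dienoyl-CoA isomerase, measured 4845 and 4771 in control, 3631 and 3697 in Cre libraries and 4807 and 4857 with GFP virus and Rbm43 siRNA. Both Cre libraries were below the other 4, and Ech1 fell by 0.39 ± 0.05 (adjusted p = 8.57e-06). The 8 falls became 12 without control replicate 2, 2 without Cre replicate 1 and 3 without Cre replicate 2.

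In branched-chain amino acid catabolism 7 of 19 genes fell (36.8%, against 6.36% over all genes), with a median of -0.12. In the direct comparison 11 of 19 were lower with Cre virus, beside 5.96% over all genes. Mccc2, a subunit of methylcrotonoyl-CoA carboxylase in leucine breakdown, measured 1033 and 924 in control, 566 and 551 in Cre libraries and 665 and 632 with GFP virus and Rbm43 siRNA. It fell by 0.81 ± 0.07 (adjusted p = 2.66e-07). Bckdha and Bckdhb, the E1 subunits of the branched-chain dehydrogenase, fell by 0.21 and 0.28, and Ivd, of leucine breakdown, by 0.25. These 3 calls were lost without either Cre library (list counts of 2 without replicate 1 and 1 without replicate 2). Bckdhb was also lost without control replicate 1 (adjusted p = 0.114). Of 18 regulators of mitochondrial biogenesis, a list that leaves out Ppargc1a, 1 rose (5.56%, beside 8.58% over all genes). Ppargc1a itself rose by 1.35, as given above. The list member was Ppargc1b, the paralog of Ppargc1a, which rose by 0.59 ± 0.08 from 295 and 276 to 443 and 419 (adjusted p = 4.85e-05), against 1.07 with GFP virus. Tfb2m and Mterf3, of mitochondrial transcription, were at -0.21 and -0.23, and Gabpa, from another part of the list, at -0.17. These genes did not pass with all libraries. Tfb2m passed without control replicate 2 (adjusted p = 0.0391) and Gabpa without control replicate 1 (0.00587).

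Thermogenic genes differed from control in both directions. Of 26 genes on the list, 21 entered the comparison, 9 rose (42.9%) and 5 fell (23.8%), beside 8.58% and 6.36% over all genes, and the median was 0.21 against 0.77 with GFP virus. In the direct comparison 14 of 21 were lower with Cre virus, beside 5.96% over all genes, with a median of -0.47. The rises numbered 6 without Cre replicate 1 and 7 without Cre replicate 2, the falls 2 and 3.

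Ucp1, the uncoupling protein of brown and beige fat, is given as the defining marker although its p was not among the smallest of the list. It measured 284 and 248 in control, 445 and 459 in Cre libraries and 1043 and 909 with GFP virus and Rbm43 siRNA. The 3 groups did not overlap, with the Cre libraries in the middle. Ucp1 was 0.77 ± 0.09 above control (adjusted p = 5.82e-06) and at -1.10 against GFP virus (adjusted p = 5.49e-07). Cidea, a lipid droplet protein of thermogenic adipocytes, had 488 and 415, 788 and 795 and 1836 and 1893 in the same order. It rose by 0.81 ± 0.07 (adjusted p = 2.79e-07) and stood at -1.24 against GFP virus (adjusted p = 1.46e-08). Letmd1, a mitochondrial protein needed in brown fat, was also between, 0.58 ± 0.06 above control and at -0.57 against GFP virus. Dio2, the deiodinase that activates thyroid hormone and another such marker, rose by 1.45 ± 0.26 from 19.8 and 12.2 to 46 and 42.2 (adjusted p = 7.39e-04), and its interval between viruses ran from -0.95 to 0.15.

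Fabp3, the heart-type fatty acid-binding protein (chr4:130308595-130315463), went to the other side of control. It measured 81.1 and 93.7 in control, 111 and 116 with GFP virus and Rbm43 siRNA, and 18.6 and 29 in the Cre libraries, which were the lowest of the 6. It fell by 1.86 ± 0.21 against control (adjusted p = 4.90e-06) and stood at -2.24 ± 0.21 against GFP virus (adjusted p = 2.31e-06), while Rbm43 siRNA under GFP virus gave 0.37 (adjusted p = 0.226). Adrb3, the beta-3 adrenergic receptor of adipocytes, was low in both Rbm43 siRNA groups, at 1595 and 1585 in control, 919 and 943 in Cre libraries and 979 and 988 with GFP virus. It fell by 0.77 ± 0.06 (adjusted p = 2.79e-08), with an interval between viruses from -0.20 to 0.04.

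**Figure D3:**
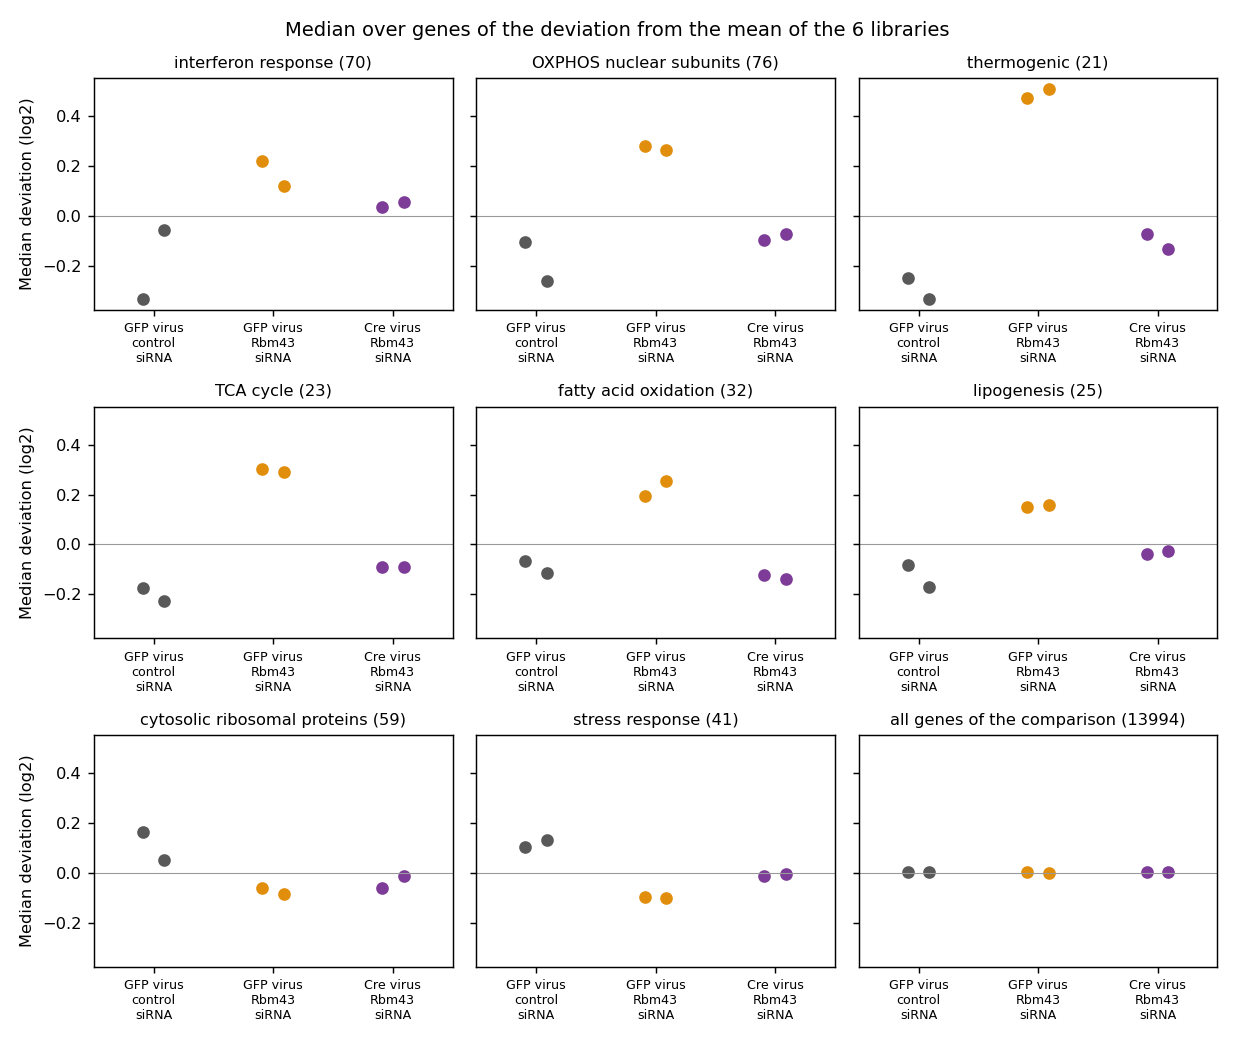
For each library (x axis, by group), the median over the genes of a list of the deviation from the mean of the 6 libraries on the log2 scale (y axis). Points are libraries, and the number of genes is in brackets. Respiratory, TCA cycle and fatty acid oxidation lists are near control in the Cre libraries, the median of the thermogenic list lies between, and the medians over all 13994 genes sit near 0.

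Lipogenic genes rose more often than they fell, with 10 of 25 higher (40%), 2 lower (8%) and a median of 0.09. Over all genes 8.58% rose and 6.36% fell. Fasn, the fatty acid synthase, measured 64920 and 60002 in control, 94656 and 95947 in Cre libraries and 95857 and 98139 with GFP virus and Rbm43 siRNA. It rose by 0.61 ± 0.05 (adjusted p = 2.16e-07), and its interval between viruses ran from -0.14 to 0.09. Acaca, the acetyl-CoA carboxylase of fatty acid synthesis, rose by 0.51 ± 0.05, and Mlxipl, which encodes the carbohydrate-response factor ChREBP, by 0.87 ± 0.08 from 311 and 278 to 550.1 and 526. Mlxipl differed by -0.37 from GFP virus (adjusted p = 0.00578), which was lost without either Cre library (0.0764 and 0.143) or replicate 1 of GFP virus with Rbm43 siRNA (0.0825). Pck1, which supplies glycerol backbones in fat, fell by 0.66 ± 0.07 and Fads1, a fatty acid desaturase, by 0.33 ± 0.05. The 10 rises became 6 without Cre replicate 1 and 7 without Cre replicate 2.

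Among 13 lipid droplet genes 4 rose (30.8%, beside 8.58% over all genes). Plin2, a droplet coat protein, rose by 0.34 ± 0.05, Abhd5, the activator of triglyceride lipase, by 0.34 ± 0.05 and Hilpda, an inhibitor of that lipase, by 0.56 ± 0.09. The fourth, Cidec, at 0.20 ± 0.05, lost its call without either Cre library (adjusted p = 0.215 and 0.155) or control replicate 2 (0.108). The list count was 8 without control replicate 1. In glucose use and the hypoxia response 10 of 26 genes rose (38.5%) and 1 fell (3.85%), beside 8.58% and 6.36% over all genes. Hk2, a hexokinase, rose by 0.61 ± 0.05 from 1981 and 1808 to 2905 and 2859.9 (adjusted p = 2.65e-07). Slc2a1, the glucose transporter GLUT1, rose by 0.46 ± 0.06 from 2303 and 2327 to 3064 and 3319. Egln3, an oxygen-dependent prolyl hydroxylase, and Vegfa, the angiogenic growth factor, rose by 0.34 and 0.31. The 10 rises became 4 without Cre replicate 1, 5 without Cre replicate 2 and 15 without control replicate 1. In cholesterol synthesis 3 of 23 genes rose (13%) and 6 fell (26.1%), beside 8.58% and 6.36% over all genes, with a median of -0.08. Pmvk, the phosphomevalonate kinase, fell by 0.32. The 6 falls became 1 without Cre replicate 1 and 3 without Cre replicate 2, and the 3 rises became 1 without any of control replicate 2 and the Cre libraries.

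Genes of mature adipocytes moved both ways, with 7 of 30 higher (23.3%) and 12 lower (40%), beside 8.58% and 6.36% over all genes. The adipokines fell most often, with 6 of 10 lower and a median of -0.25. In bulk RNA, fewer cells of a type and less RNA per cell cannot be told apart. Rbp4, a secreted retinol carrier, measured 3609.8 and 3432 in control, 2159 and 2105 in Cre libraries and 3211 and 3142 with GFP virus and Rbm43 siRNA. It fell by 0.72 ± 0.05 (adjusted p = 1.28e-08), and the difference between viruses was -0.57 (adjusted p = 1.84e-06). Adipoq fell by 0.25 ± 0.05 (adjusted p = 8.35e-04), and Cebpa, a central adipogenic transcription factor, by 0.60 ± 0.05 (adjusted p = 1.88e-07). Apln, the peptide apelin, rose by 0.60 ± 0.07, and Gpd1, which makes glycerol-3-phosphate, by 0.51 ± 0.06. Of the general markers, Plin1 was at 0.12 (adjusted p = 0.0737) and Lipe, the hormone-sensitive lipase, at 0.04 (adjusted p = 0.644), so neither passed with all libraries. Plin1 passed without control replicate 1 (0.0243). Fabp4 rose by 0.29 and Lep, leptin, fell by 0.62, and both calls were lost without either Cre library (adjusted p = 0.0604 and 0.0812 for Fabp4, 0.0587 and 0.101 for Lep). Lep was also lost without control replicate 2 (0.0670) and in DESeq2 (0.0720). The count of rises was 2 without Cre replicate 1, 3 without Cre replicate 2 and 11 without control replicate 1, while the falls numbered 8 to 12 over the 6 libraries left out in turn.

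Genes of the endoplasmic reticulum stress and amino acid responses fell more often than they rose, with 14 of 41 lower (34.1%), 2 higher (4.88%) and a median of -0.15. Over all genes 6.36% fell and 8.58% rose. Among chaperones of the endoplasmic reticulum, 9 of 20 were lower. Hspa5, the chaperone BiP, measured 22851 and 24313 in control, 18542 and 19141 in Cre libraries and 17738 and 17567 with GFP virus and Rbm43 siRNA. All 4 libraries with Rbm43 siRNA were below both controls, and Hspa5 fell by 0.32 ± 0.05 (adjusted p = 8.07e-05), with an interval between viruses from -0.01 to 0.19. Herpud1, of endoplasmic reticulum degradation, fell by 0.44 ± 0.06 and Sdf2l1, a cofactor of BiP, by 0.71 ± 0.11. Ddit4, an inhibitor of mTORC1, rose by 0.66 ± 0.09 from 2401 and 1822 to 3264 and 3364 (adjusted p = 2.40e-05). Vldlr, a lipoprotein receptor, rose by 0.32, a call lost without Cre replicate 1 (adjusted p = 0.0520). The 14 falls became 6 without Cre replicate 1 and 9 without Cre replicate 2.

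Cytosolic ribosomal protein genes had 25 of 59 lower (42.4%, beside 6.36% over all genes) and a median of -0.14. In limma 0 were higher, also at an unadjusted p under 0.05, and edgeR and DESeq2 called 0 higher as well, while 3 passed as higher without control replicate 1. Rpsa, a protein of the small subunit, fell by 0.42 ± 0.05 from 17438 and 18384 to 12930 and 13907 (adjusted p = 8.85e-06). Rps6, the target of S6 kinase, fell by 0.32 ± 0.05, and Rpl13 and Rplp0, of the large subunit, fell by 0.29 and 0.29. In the direct comparison of viruses limma called 0 of the 59, with a median of 0.04 and 2 at an unadjusted p under 0.05. The number of falls moved widely with single libraries, from 6 without Cre replicate 1 and 11 without Cre replicate 2 to 21 without control replicate 1 and 47 without control replicate 2, and in limma was 0 without the trend, with 23 at an unadjusted p under 0.05. Ribosomal protein genes have many processed copies, and their reads may be shared.

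In the extracellular matrix list 15 of 54 genes fell (27.8%) and 8 rose (14.8%), beside 6.36% and 8.58% over all genes. Col15a1, a collagen of basement membranes, measured 10045 and 10541 in control, 5371 and 5323 in Cre libraries and 6031 and 6212 with GFP virus and Rbm43 siRNA. It fell by 0.94 ± 0.05 (adjusted p = 9.75e-11), and stood at -0.20 against GFP virus (adjusted p = 0.0108). That second call was lost without either Cre library (0.158 and 0.196), without replicate 2 of GFP virus with Rbm43 siRNA (0.130) and with no filter (0.0532). Col8a1, a short-chain collagen, fell by 0.55 ± 0.05 from 8619.7 and 9047 to 6114 and 5927, with an interval between viruses from -0.10 to 0.10. Mmp12, a metalloprotease that cleaves elastin, had 88.4 and 88.9, 165 and 158 and 270.2 and 227 in control, GFP and Cre libraries. It rose by 1.47 ± 0.13 against control (adjusted p = 1.73e-07) and by 0.62 ± 0.13 against GFP virus (adjusted p = 0.00355). The call between viruses was lost without Cre replicate 1 (0.148) or replicate 2 of GFP virus with Rbm43 siRNA (0.0561). Mmp3, or stromelysin 1, rose by 0.89 ± 0.11 from 212 and 204 to 348 and 432. In the direct comparison 15 of 54 matrix genes were higher with Cre virus and 2 lower, against 2.66% and 5.96% over all genes. The 15 falls against control became 7 without Cre replicate 1 and 6 without Cre replicate 2, and the 8 rises 5 without either.

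**Figure D4:**
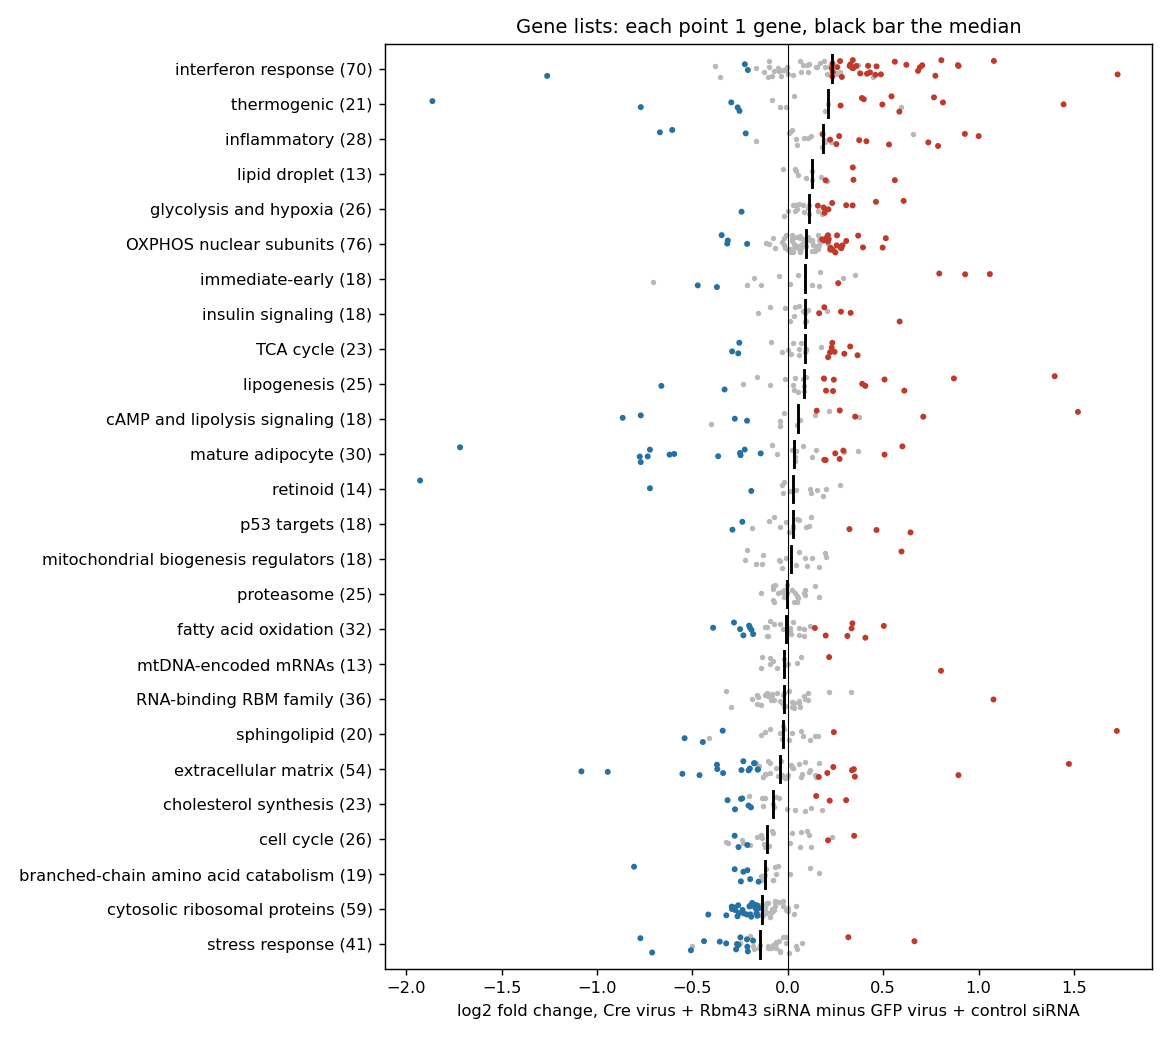
Log2 fold change against control (x axis, Cre libraries minus control libraries) of every gene in the 26 lists (rows, with the number of genes in brackets). Red and blue points are genes called higher and lower, grey points the others, and black bars the medians. Interferon and thermogenic lists have the highest medians, 0.23 and 0.21, and stress and ribosomal lists the lowest, -0.15 and -0.14.

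A further set of genes differed from both other groups in the Cre libraries. Ptgs2, the inducible cyclooxygenase of prostaglandin synthesis (chr1:150100031-150108227), measured 573 and 550.2 in control, 597 and 484 with GFP virus and Rbm43 siRNA, and 1067 and 1185 in Cre libraries. Both Cre libraries were above the other 4. Ptgs2 rose by 1.00 ± 0.09 against control (adjusted p = 1.93e-07) and by 1.06 ± 0.09 against GFP virus (adjusted p = 7.24e-07). Cxcl14, a chemokine, was also highest in the Cre libraries, with 6946 and 6513 in control and 9376 and 10065 in Cre libraries. It rose by 0.53 ± 0.06 against control (adjusted p = 8.06e-06) and 0.69 ± 0.06 against GFP virus (adjusted p = 2.05e-06). Nr4a1, an immediate-early nuclear receptor, rose by 0.93 ± 0.15 from 122 and 122 to 216 and 250.3 (adjusted p = 2.41e-04) and by 0.76 ± 0.15 against GFP virus (adjusted p = 0.00285). The call between viruses was lost without Cre replicate 2 (0.122) or replicate 2 of GFP virus with Rbm43 siRNA (0.0947).

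Of 28 inflammatory genes 11 rose (39.3%) and 3 fell (10.7%), beside 8.58% and 6.36% over all genes. The median of the list was 0.19, against 0.03 with GFP virus and Rbm43 siRNA. Saa3, an acute-phase protein, rose by 0.93 ± 0.13 from 165 and 124 to 254 and 295, and Lcn2, or lipocalin 2, by 0.79 ± 0.11 from 209 and 220.3 to 331 and 416. Their intervals between viruses ran from -0.09 to 0.46 and from -0.12 to 0.32. Ccl11, the chemokine eotaxin, fell by 0.61 ± 0.10, and Hp, haptoglobin, fell by 0.22 ± 0.05, a call lost without either Cre library and under quantile normalization. The 3 falls became 1 without either Cre library. The 11 rises became 7 without control replicate 1, 6 without Cre replicate 1 and 5 without Cre replicate 2. Immediate-early genes had 4 of 18 higher (22.2%) and 2 lower (11.1%), beside 8.58% and 6.36% over all genes. Ier3 rose by 0.79 ± 0.10 beside Nr4a1, while Myc and Egr2 were at -0.37 and -0.47. The call of Myc was lost without Cre replicate 1 (adjusted p = 0.195), and that of Egr2 without either Cre library or control replicate 1. The 4 rises became 2 without control replicate 2 or either Cre library, and 6 without control replicate 1.

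Downward, Mmd2, Hacl1, Prdx3 and BC024063 passed against both other groups. Mmd2, a membrane protein of the progestin and adipoQ receptor family (chr5:142562358-142608800), measured 244 and 276 in control, 105 and 112 with GFP virus and Rbm43 siRNA, and 68.5 and 51.8 in Cre libraries, in 3 separate ranges. It fell by 2.106 ± 0.15 against control (adjusted p = 1.76e-08) and stood at -0.85 ± 0.15 against GFP virus (adjusted p = 0.00115), the latter lost without Cre replicate 2 (0.0551). Prdx3, the peroxiredoxin of mitochondria, had 3515 and 3438, 2399.5 and 2379 and 1683 and 1728 in the same order. It fell by 1.03 ± 0.05 (adjusted p = 9.75e-11), with -0.49 between viruses and -0.54 for the siRNA under GFP virus. Hacl1, a peroxisomal lyase of fatty acid alpha-oxidation, fell by 1.11 ± 0.06 from 1866 and 1804 to 839 and 856, and BC024063 by 1.15 ± 0.21. BC024063 against GFP virus (adjusted p = 0.0383) lost its call without Cre replicate 1 (0.409), without either library of GFP virus with Rbm43 siRNA (0.105 and 0.241), with no filter and in edgeR (0.0519). Upward, Trf, transferrin, went from 1807 and 1801 to 3609.9 and 3482, 0.97 ± 0.05 against control (adjusted p = 5.19e-10) and 0.18 against GFP virus (adjusted p = 0.0358). Col11a2, a fibrillar collagen, rose by 0.92 ± 0.13 from 111 and 107 to 192 and 226. Against GFP virus the calls of Trf and Col11a2 were lost without either Cre library and with no filter. Without Cre replicate 1 and 2 the differences were 0.16 and 0.21 for Trf and 0.56 and 0.33 for Col11a2. Both calls were also lost without replicate 1 of GFP virus with Rbm43 siRNA, at 0.12 and 0.36. Trf was lost in DESeq2 too (adjusted p = 0.0583), and Col11a2 without replicate 2 of GFP virus with Rbm43 siRNA. These genes were picked for passing in 2 contrasts that share the Cre libraries, so the pair of tests is a description.

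Markers of other cell types were followed beside these groups, and the single markers named were picked after their values were seen. Macrophage markers summed to 1985 and 2029 in control and to 1965 and 2061 in Cre libraries. Of 11 tested 1 fell, Cd14, by 0.55, a call lost without control replicate 1, either Cre library or either library of GFP virus with Rbm43 siRNA, and limma, edgeR and DESeq2 called 0 higher, with 1 at an unadjusted p under 0.05. Of 10 markers of lymphocytes, mast cells and neutrophils 1 entered the comparison, and their sum was 18.7 and 17.0 in control, 15.5 and 17.7 with GFP virus and Rbm43 siRNA, and 29.4 and 32.5 in Cre libraries. Most of that sum was Kit, a receptor of mast cells and other cells, at 14.6 and 15.8 in control and 19.6 and 28.1 in Cre libraries, a difference of 0.60 that did not pass (adjusted p = 0.303). Cd3g, Ms4a1 and S100a9, which define T cells, B cells and neutrophils, were at 0 in all 6 libraries, while Cd3e reached 1.04, Cd79a 2.64, Nkg7 1.22, Cpa3 1.76 and S100a8 8.81 in their highest library. Of mural and smooth muscle markers 5 of 8 were higher (62.5%) and 1 lower (12.5%), beside 8.58% and 6.36% over all genes. Their sum was 61874 and 56532 in control, 65167 and 62492 with GFP virus and Rbm43 siRNA, and 73960 and 77033 in Cre libraries. Most of each sum was Acta2 and Tagln. Cspg4 and Notch3, also among the 8, were at 0.17 and -0.10 and did not pass in limma (adjusted p = 0.102 and 0.458). Myh11, smooth muscle myosin, rose by 0.85 ± 0.05 from 1516 and 1423 to 2568 and 2722. Acta2, smooth muscle actin, rose by 0.44 ± 0.06 from 33863 and 30048 to 42026 and 44276, and can share reads with other actins, while Pdgfrb, a receptor of pericytes and fibroblasts, fell by 0.18, a call lost without either Cre library. Inflammatory genes also rose more often than they fell against control, while matrix genes fell more often. Matrix genes were more often higher than lower with Cre against GFP virus. The part of mural markers in these differences was not tested. Endothelial markers were low, summing to 265 and 267 in control and 332 and 367 in Cre libraries, with Kdr, a VEGF receptor, called at 0.61, which was lost without Cre replicate 2. Preadipocyte and fibroblast markers summed to 299460 and 290330 in control and 277780 and 271060 in Cre libraries. Col1a1 made up most of each sum, at 271900 and 264560 in control and 251230 and 243800 in Cre libraries. With all libraries 0 of 7 were called by limma, edgeR or DESeq2, with 0 at an unadjusted p under 0.05.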

How the data were processed

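Messenger RNA was sequenced from 6 libraries in 3 groups of 2, with groups taken from the sample titles. The deposited table holds 1 normalized signal per gene and library, reads divided by a library's size factor, here called the normalized count. The submitters' processing notes name mm10 as the build and, in no stated role, DESeq2 2.11.40.7, STAR 2.7.8 and fastp 0.23.2. Which counter, annotation and strand setting the authors used is not given in the sources used here. Dividing by the worth of 1 read gave whole reads within 0.01 for 100% of values. Of the genes in the table, 13032 were at 0 in all 6 libraries and 21 of those compared carry a date in place of a symbol or a repeated symbol.

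Genes with at least 10 in at least 2 of the 6 libraries (14211) were fitted with limma 3.58.1 (R 4.3.3) on log2(normalized count + 1), a scale that understates changes of low genes. The fit had 1 mean per group, a mean-variance trend and 3 degrees of freedom left for the spread. The moderated test added 15.5 prior degrees of freedom, so its p-values rest largely on the spread of other genes along the trend. P-values were adjusted by Benjamini-Hochberg over all fitted genes, with a threshold of 0.05. Errors are standard errors from this fit. An exact permutation test of 2 against 2 libraries cannot go below p = 0.333. Members and gene lists were chosen with earlier results of these data known, so lists are given as counts and medians. Named genes are Rbm43 and Ppargc1a, the 12 largest rises and falls with a mean of at least 50 and groups that do not overlap, up to 4 per list by p with up to 2 against its direction, 5 per direction for each related contrast, and cell type markers. Alternatives were other pseudocounts, filters and scalings, a replicate block, leaving out each library, and 2 count models of the whole reads (DESeq2 1.42.0, edgeR 4.0.16). Replicate numbers do not pair the libraries: deviations from group means correlated at 0.015, -0.042 and -0.033 across genes. The procedure was tested on simulated data. Positions are from GENCODE M21 (mm10, all 140 named genes matched).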

Additional observations from a re-analysis of the deposited data

How the results depend on the processing

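No called result for a named gene turned direction in any alternative run. In the Cre comparison with control, 2091 genes were called, 1201 higher and 890 lower. These were 1226, 704 and 522 with no filter on low values, 433, 242 and 191 without the mean-variance trend, and 1220, 690 and 530 with DESeq2. Leaving out each library gave 769 to 2644, 450 to 1545 and 319 to 1099. For Cre against GFP virus under Rbm43 siRNA, 1206 became 607 with no filter and 0 in limma without the trend (smallest adjusted p 0.119, 2320 genes at an unadjusted p under 0.05, 1333 by edgeR, 838 by DESeq2), and 310 to 2060 with a library left out. For Rbm43 siRNA under GFP virus, 3290 became 1285 without the trend, 2035 with DESeq2 and 2113 to 3619 with a library left out. A replicate block, which the data gave no sign of pairing for, called 2210, 1301 and 3401 genes in these comparisons. Why the trend matters this much was not tested. Over named genes and alternatives in the Cre comparison with control, 2620 results kept their side of the threshold, 164 lost it and 14 gained it. A lone library left in a group is assumed to vary like the others. Pseudocounts of 0.5 and 5, a mean of at least 50 and 3 other scalings kept the count between 1961 and 2111. Depth limits genes near the filter of 10.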

Other observations

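Of 25 proteasome subunits, limma, edgeR and DESeq2 called 0 with all libraries, and the median difference was -0.01. In limma 1 in each direction had an unadjusted p under 0.05. The largest difference was 0.17 with all libraries, but Psmb5 was at 0.36 without control replicate 1, so the 0 calls depend on that library. Of 36 genes of the RBM family of RNA-binding proteins, a list that leaves out the siRNA target Rbm43, limma called 1 with all libraries: Rbm38, a p53 target that regulates mRNA stability, at 1.08 ± 0.27 (adjusted p = 0.00925). Rbm38 measured 42.7 and 19.5 in control and 63.6 and 60.6 in Cre libraries, and its call was lost without either Cre library or control replicate 2, with no filter and in DESeq2 (0.0671). The list held 2 rises and 3 falls without control replicate 1. Rbm41, at 0.33 (adjusted p = 0.0757), passed with a replicate block (0.0357). Cell cycle genes had 2 of 26 higher (7.69%) and 3 lower (11.5%), beside 8.58% and 6.36% over all genes. Mki67, a proliferation marker, fell by 0.26 and Ccnd1, cyclin D1, rose by 0.21, and both calls were lost without either Cre library. The list held at most 1 call without either of them.

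In insulin signaling 5 of 18 genes rose (27.8%), which became 4 and 6 without control replicate 1 and 2, and 1 and 2 without Cre replicate 1 and 2. In cAMP and lipolysis signaling 5 of 18 rose (27.8%) and 4 fell (22.2%), and without either Cre library 3 rose and 3 fell. Over all genes 8.58% rose and 6.36% fell. Igf1, the insulin-like growth factor, measured 5941 and 5779 in control, 8629 and 8966 in Cre libraries and 9369.7 and 9609 with GFP virus and Rbm43 siRNA, and rose by 0.59 ± 0.05 (adjusted p = 5.26e-08). Gnai1, an inhibitory G protein subunit, rose by 0.71 ± 0.06 from 819.7 and 788 to 1287 and 1343 (adjusted p = 1.13e-07), while Adora1, the adenosine receptor that couples to such proteins, fell by 0.87 ± 0.07 from 1012 and 921 to 557 and 503 (adjusted p = 1.51e-07). In sphingolipid metabolism, Sgms2, a sphingomyelin synthase, fell by 0.54 ± 0.09 and Cers4, a ceramide synthase, by 0.45 ± 0.08. Among p53 targets 3 of 18 rose and 2 fell, with Btg2, an antiproliferative gene, at 0.64 ± 0.08 and Cdkn1a, the cell cycle inhibitor p21, at 0.32 ± 0.06, and the 3 rises became 2 and both falls were lost without either Cre library.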
